A study of Mus musculus with 43 samples.

Results

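Preimplantation mouse embryos at the morula stage were ranked by how strongly they expressed 6 genes of the trophectoderm, the outer epithelium that forms at the next stage. The score of a library was the mean log2(TPM + 1) of Cdx2, Krt8, Krt18, Tfap2c, Gata3 and Atp1b1. TPM is a level per transcript length, with the same total in every library. Members were chosen by these measured levels. The 10 libraries with the highest scores, called high-score morulae below, were set against the 10 with the lowest, called low-score morulae. These 20 are among 30 morula libraries, in a series of 43 libraries that also covers full-grown oocytes. The study asked what maternal loss of Polycomb and MLL2 components does, and it made 10 morula libraries of each of 3 genotypes. The maternal Pcgf1/6 double knockout (matDKO) came from oocytes without PCGF1 and PCGF6, subunits of variant Polycomb repressive complex 1. The maternal Pcgf1/6 and Mll2 triple knockout (matTKO) also lacked maternal MLL2, a histone H3K4 methyltransferase encoded by Kmt2b. The third genotype was wild type (WT), with both sets of proteins. No agent was applied to any group. The labels give no strain, Cre driver, hour of development or number of embryos per library.

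The trophectoderm is the first epithelium of the embryo. Outer cells of the morula become polarised, the Hippo pathway is switched off in them, YAP1 enters the nucleus and, with TEAD4, turns on Cdx2 and Gata3. These cells then seal with tight junctions, build keratin filaments and pump sodium and water inward to open the blastocoel, while inner cells keep Sox2 and other pluripotency genes and later split into epiblast and primitive endoderm.

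The libraries were placed in the 2 groups by their own RNA, so the levels of the 6 score genes are given as a description and were not tested. For every other gene, a call says that it varied together with the score across these libraries. It compares no treatments. In whole morulae, fewer outer cells and less RNA of a gene per cell cannot be told apart. High-score morulae comprised 1 matDKO, 3 matTKO and 6 WT libraries. Low-score morulae comprised 5 matDKO, 4 matTKO and 1 WT library. Replicate numbers were split as unevenly. Numbers 1 to 5 supplied 9 of the high-score and 1 of the low-score libraries, and numbers 6 to 10 supplied 1 and 9. The labels attach no batch or day to these numbers, so the part of replicate number in the score was not tested beyond the values below.

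Several library measures moved with the score. High-score libraries had 11802 to 12482 genes at 1 TPM or more (median 12049), against 10902 to 11880 (median 11630) in low-score libraries. Mitochondrial transcripts took a median of 7.35% of the total in high-score and 11.3% in low-score libraries. The 50 most abundant genes took a median of 24.1% in high-score and 29.96% in low-score libraries. Ribosomal protein genes took a median of 17.3% in high-score and 19.7% in low-score libraries. There were 4 low-score libraries that stood apart, namely matDKO replicates 8 and 9 and matTKO replicates 8 and 9, whose median correlation with the other libraries was under 0.9. Results that rest on them are given with and without them. Every one of the 30 libraries held Pou5f1 (58.4 TPM or more), Nanog (22.0 TPM or more), Cdx2 (2.01 TPM or more) and Krt8 (26.2 TPM or more), as morulae do. Sequencing depth is unknown.

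**Figure D1:**
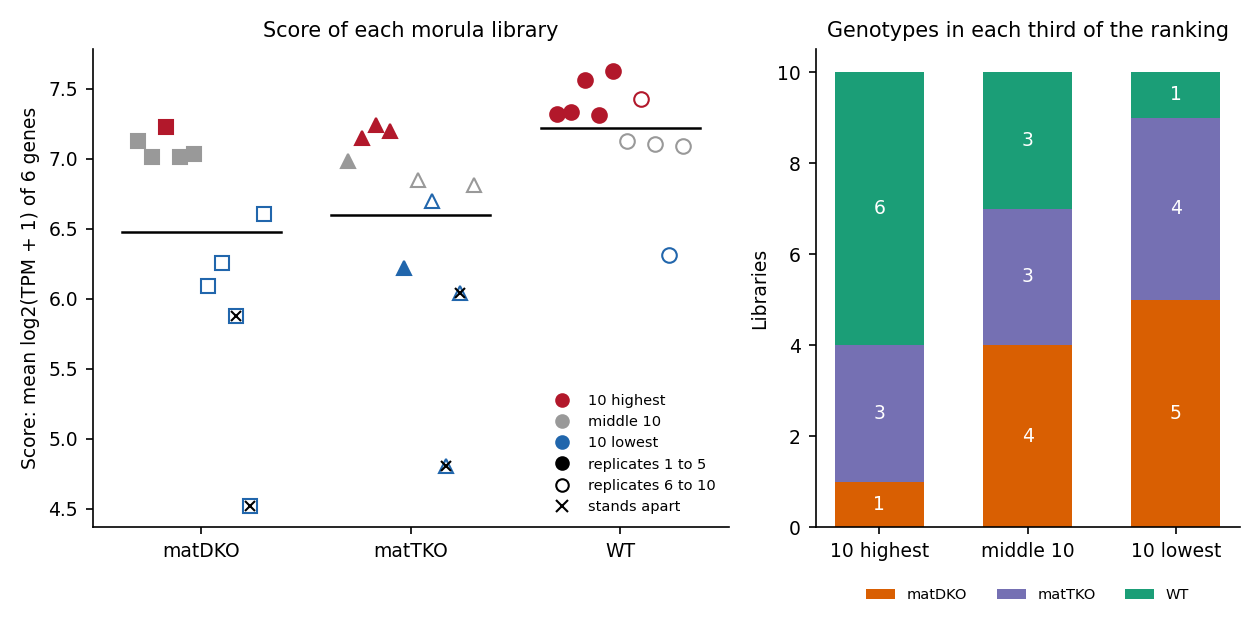
Left, the score of each of the 30 morula libraries by genotype, with filled symbols for replicates 1 to 5, open symbols for replicates 6 to 10, crosses on the 4 libraries that stand apart, and a line at each mean. Right, the number of libraries of each genotype among the 10 highest, middle 10 and 10 lowest scores. WT libraries lie between 6.31 and 7.63, matDKO libraries reach down to 4.52 and matTKO libraries to 4.81.

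The score averaged 7.34 ± 0.156 in high-score and 5.94 ± 0.720 in low-score morulae (SD, n = 10 each). High-score libraries spanned 7.15 to 7.63 and low-score libraries 4.52 to 6.70, so the low group was the more spread of the pair. At the upper boundary, matTKO replicate 2 at 7.15 was inside the high group and matDKO replicate 1 at 7.13 was outside it. At the lower boundary, matTKO replicate 7 at 6.70 was inside the low group and matTKO replicate 10 at 6.82 was outside it.

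The score itself differed between genotypes, which the ranking had not used. It averaged 6.48 ± 0.835 in matDKO, 6.60 ± 0.746 in matTKO and 7.22 ± 0.369 in WT morulae (SD, n = 10 each). A two-sided permutation test with 100000 resamples put matDKO lower than WT by a difference of -0.75 (adjusted p = 0.0256 over 3 pairs). The matTKO minus WT difference was -0.62 (adjusted p = 0.0256), and the matTKO minus matDKO difference was 0.12 (adjusted p = 0.724). Among replicates 1 to 5, every matDKO and matTKO library scored below every WT library, with differences of -0.35 and -0.47 (adjusted p = 0.0119 each, exact permutation test, n = 5 each, the smallest p this design allows before adjustment being 0.00794). Among replicates 6 to 10 the differences were -1.14 for matDKO (adjusted p = 0.0476, exact permutation test, n = 5 each) and -0.77 for matTKO (adjusted p = 0.155). Without the 4 libraries that stand apart, the differences from WT were -0.43 for matDKO and -0.33 for matTKO, and neither passed (adjusted p = 0.114 each by permutation, n = 8, 8 and 10).

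Krt8 and Krt18, which encode the paired keratins of simple epithelia, spread most among the score genes. Krt8 stood at 753 to 1573 TPM (median 1004) in high-score and at 26.2 to 545 TPM (median 287) in low-score morulae. Krt18 stood at 897 to 1952 TPM (median 1178) in high-score and at 24.9 to 759.8 TPM (median 373) in low-score morulae. For both keratins every high-score library was above every low-score one. The lowest libraries were matDKO replicate 9, with 26.25 TPM of Krt8 and 24.85 TPM of Krt18, and matTKO replicate 8, with 131.75 TPM of Krt8 and 36.87 TPM of Krt18. In matTKO replicate 8 the gap between the keratins was thus wide, with Krt8 well above Krt18.

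The pair lie side by side on chromosome 15 of GRCm38, Krt8 at 101996711 to 102004342 and Krt18 at 102028216 to 102032026. Their log2 levels had a Pearson correlation of 0.958 over the 30 morula libraries. Their promoters are shown because these adjacent genes moved together and were the most variable of the score. Windows of 300 bases around each gene start, from 250 before to 50 after, are from RefSeq on GRCm38.p6. Capitals mark matches on either strand. For AP-2 factors such as TFAP2C the letters were GCCNNNGGC. Zinc finger factors of the GATA3 kind were searched as AGATAA, and also with TGATAA in its place. For KLF factors the letters were GGGCGTGG, and also GGGTGTGG. TEAD factors were searched as GGAATG. The motifs do not overlap in these windows.
Krt8 (chr15:102004293-102004592, minus strand): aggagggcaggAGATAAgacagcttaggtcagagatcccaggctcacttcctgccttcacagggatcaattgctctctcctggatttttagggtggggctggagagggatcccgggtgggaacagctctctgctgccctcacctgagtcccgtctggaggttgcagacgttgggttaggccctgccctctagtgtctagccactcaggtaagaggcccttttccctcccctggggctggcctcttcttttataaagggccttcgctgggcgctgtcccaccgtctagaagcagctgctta
Krt18 (chr15:102027966-102028265, plus strand): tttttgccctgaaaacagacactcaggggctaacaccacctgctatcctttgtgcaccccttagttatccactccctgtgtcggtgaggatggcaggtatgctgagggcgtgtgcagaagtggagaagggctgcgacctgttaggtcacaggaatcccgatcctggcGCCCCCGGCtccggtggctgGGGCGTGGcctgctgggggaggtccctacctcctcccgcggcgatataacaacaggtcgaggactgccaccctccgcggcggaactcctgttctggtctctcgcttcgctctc
The Krt8 window held 1 GATA match and no AP-2 or KLF match, and the Krt18 window held 1 AP-2 and 1 KLF match and no GATA match. Neither held the TEAD letters. Over 9019 tested genes with a window, 12.1% held the TEAD motif, 24.3% the AP-2 motif, 10.6% a GATA motif and 13.6% a KLF motif. A match is a description of letters and not a binding site.

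The other 4 score genes varied less. Cdx2, the homeobox factor that specifies trophectoderm, stood at 7.94 to 24.7 TPM (median 14.5) in high-score and at 2.01 to 12.9 TPM (median 6.09) in low-score morulae. Gata3, a zinc finger factor that acts beside Cdx2, stood at 91.4 to 162 TPM (median 145) in high-score and at 31.5 to 124 TPM (median 85.2) in low-score morulae. The groups overlapped for both. Atp1b1, the beta subunit of the sodium pump, stood at 91.8 to 180.0 TPM (median 120.0) in high-score and at 14.7 to 87.9 TPM (median 43.2) in low-score morulae, without overlap. Tfap2c, the AP-2 factor, stood at 42.2 to 72.3 TPM (median 56.7) in high-score and at 22.3 to 61.7 TPM (median 45.2) in low-score morulae. Over the 30 libraries the correlation of each gene with the mean of the other 5 was 0.944 for Krt18, 0.939 for Krt8, 0.842 for Gata3, 0.815 for Atp1b1, 0.785 for Cdx2 and 0.165 for Tfap2c. Tfap2c thus followed the rest least.

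**Figure D2:**
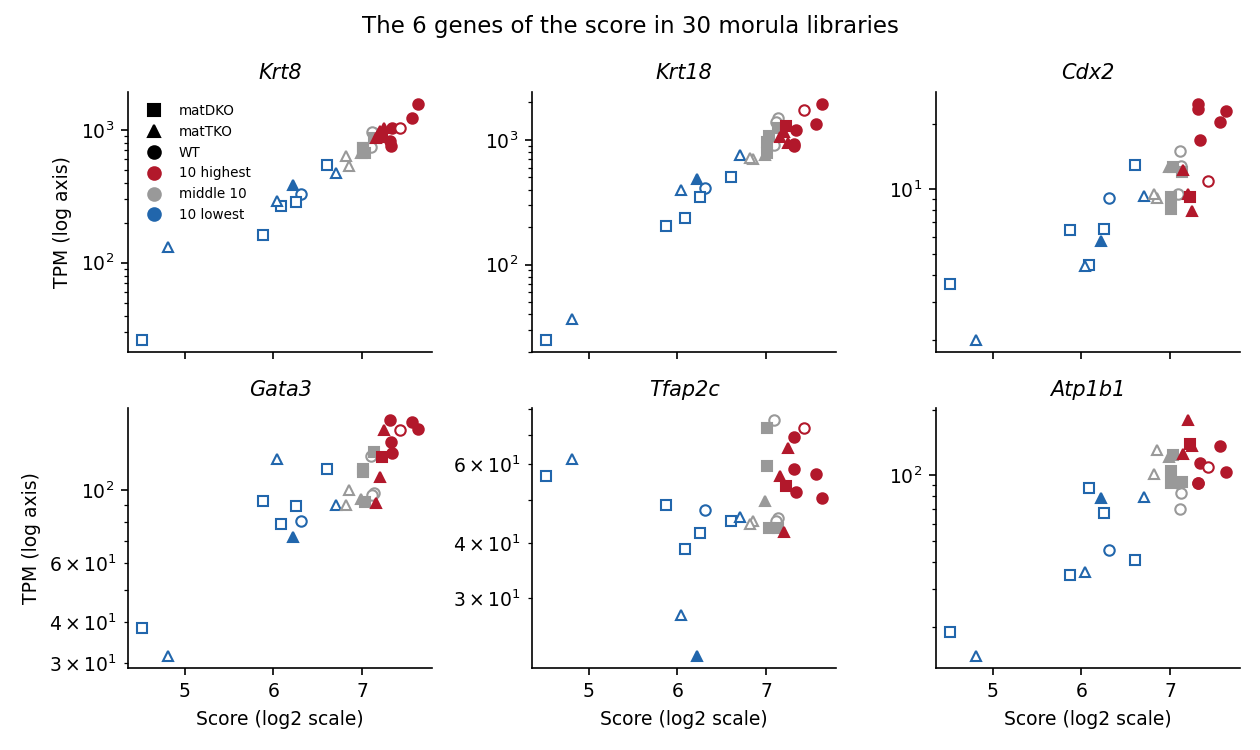
Level of each score gene in TPM (log axis) against the score in 30 morula libraries, coloured by group, with filled symbols for replicates 1 to 5 and open symbols for replicates 6 to 10. Krt8 and Krt18 climb along the whole score, and Tfap2c spreads between 22.3 and 75.5 TPM with little order.

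Across 12301 other genes with a mean of at least 1 TPM, limma with genotype as a covariate called 1670 higher (13.6% of genes tested) and 84 lower (0.683%) in high-score morulae at an adjusted p under 0.05, 14.3% in either direction. The median difference of the genes called higher was 0.96 on the log2(TPM + 1) scale, and that of the genes called lower was -1.19. The 10 middle libraries were placed by the same score and were not in the fit. Their mean level lay between those of the other groups for 1298 of the 1670 and for 62 of the 84. It did so for 4824 of the 10547 genes not called. Called genes had been selected for a wide gap between high and low means, and a wide gap holds a middle mean more often. The contrast with genes not called is thus no separate evidence. High-score libraries all exceeded all low-score libraries for 159 genes (1.29%), and lay below all of them for 2 (0.0163%). These counts, and each statement of overlap for a single gene, compare TPM with no adjustment for genotype, which differed between the groups.

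The excess of higher genes depended on the scaling. The median difference over all genes tested was 0.30 in TPM, and 9175 of 12301 genes had differences above 0. Differences and list medians below are in TPM and stand against that shift of 0.30. When libraries were scaled by median ratios the median difference was 0.03, and limma called 247 genes higher and 235 lower. Each of those 247 had also been called higher in TPM, and 81 of the 84 genes called lower remained so. With replicate numbers 1 to 5 against 6 to 10 as a further covariate limma called 0 genes, with 1257 at an unadjusted p under 0.05, and 1752 of the 1754 calls kept their sign. The median difference of those called genes was then 0.83 for the higher and -0.85 for the lower ones, and the median SE over genes was 0.41, against 0.26 without that covariate. That split was chosen after seeing the data. The 1 low-score library among numbers 1 to 5 was matTKO replicate 5, and the 1 high-score library among 6 to 10 was WT replicate 7. With the split in the fit, the comparison rested largely on them. The called genes had been selected for their direction in these same libraries, so their kept signs are no separate evidence. Without the 4 libraries that stand apart, 1714 genes were higher (13.9%) and 60 lower (0.488%), and 1209 of the 1670 and 41 of the 84 were among them. The median difference over all genes was then 0.28. Adjusted p-values below are from limma over all 12301 genes.

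Trophectoderm genes outside the score had differences between high-score and low-score morulae above 0 in 26 of 32 cases. Over all genes tested 9175 of 12301 did. Of 32 tested members of the list, 13 were higher and 0 lower (40.6% higher, against 13.6% of all genes). The list's median difference was 0.71, against 0.30 over all genes. The list was made of genes known from the same tissue as the score, so its direction is no separate evidence. Eomes, a T-box factor of the trophoblast, stood at 5.66 to 20.4 TPM (median 9.42) in high-score and at 0.190 to 6.81 TPM (median 1.46) in low-score morulae, a difference of 1.84 ± 0.37 (SE, adjusted p = 0.00535). Ets2, a factor needed for trophoblast growth, was scarce everywhere, at 0.810 to 4.55 TPM (median 2.08) in high-score and 0 to 0.560 TPM (median 0.0350) in low-score morulae (1.14 ± 0.22, adjusted p = 0.00411), and the groups did not overlap. Grhl1, a grainyhead factor of epithelia, differed by 1.40 ± 0.34 (adjusted p = 0.0123). These 3 were also called with median-ratio scaling, and the other 10 members were not.

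Among those 10, the connexin gene Gjb5 differed by 1.51 ± 0.41, the keratin gene Krt7 by 1.83 ± 0.52, and the factors Gata2 and Msx2 by 1.34 ± 0.34 and 1.23 ± 0.31 (adjusted p = 0.0212, 0.0253, 0.0172 and 0.0149). Fgfr2, the receptor through which FGF4 acts on trophoblast, differed by 0.59 ± 0.17 (adjusted p = 0.0281), and with median-ratio scaling by 0.28 (adjusted p = 0.344). Other members called were Cldn4, Arid3a, Lcp1 and Dppa1. Fgfr2 and Lcp1 were no longer called without the 4 libraries that stand apart (adjusted p = 0.0606 and 0.0866). Tead4, the DNA-binding partner of YAP1 upstream of Cdx2, stood at 31.1 to 43.9 TPM (median 36.7) in high-score and 16.9 to 46.6 TPM (median 35.2) in low-score morulae and was not called (0.04 ± 0.19, adjusted p = 0.915). Klf5, a factor of both early lineages, stood at 154 to 246 TPM (median 202) in high-score and 74.8 to 218 TPM (median 125) in low-score morulae with a difference of 0.49 ± 0.21 (adjusted p = 0.117), and without the 4 libraries that stand apart by 0.75 (adjusted p = 0.00684). Ly6a, a surface protein gene, had a median of 1245 TPM in high-score and 2674 TPM in low-score morulae and was not called (adjusted p = 0.189). Elf5, a later trophoblast factor, reached at most 1.94 TPM in any library and was not tested.

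The largest difference of any called gene was that of Dppa1, on chromosome 11, 46607010 to 46629274. It stood at 109.7 to 392 TPM (median 194) in high-score and at 0 to 105 TPM (median 35.6) in low-score morulae, without overlap, a difference of 3.37 ± 0.96 (adjusted p = 0.026). Its neighbour BC053393, at 46571513 to 46589232, followed with 107 to 520.3 TPM (median 244) in high-score and 0.490 to 209.6 TPM (median 33.4) in low-score morulae (3.17 ± 0.88, adjusted p = 0.0244), and the groups overlapped. The 4 low-score libraries that stand apart held the 4 lowest Dppa1 values, from 0 to 3.26 TPM, and without them the difference was 1.64 (adjusted p = 0.00835). With median-ratio scaling it was 3.07 for Dppa1 (adjusted p = 0.076) and 2.86 for BC053393 (adjusted p = 0.072), past the threshold for neither. The levels of the 2 genes had a Pearson correlation of 0.926 over the 30 libraries. Their start regions are shown because the genes are adjacent and alike in pattern, and they share stretches of sequence, the longest 16 bases long. Capitals mark the motifs listed above.
Dppa1 (chr11:46629225-46629524, minus strand): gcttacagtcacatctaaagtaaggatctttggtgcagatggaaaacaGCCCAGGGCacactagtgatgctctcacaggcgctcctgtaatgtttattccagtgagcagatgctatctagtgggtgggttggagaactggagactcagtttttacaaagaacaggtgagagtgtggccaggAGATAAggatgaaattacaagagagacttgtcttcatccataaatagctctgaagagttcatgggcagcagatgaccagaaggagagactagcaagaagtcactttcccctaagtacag
BC053393 (chr11:46571263-46571562, plus strand): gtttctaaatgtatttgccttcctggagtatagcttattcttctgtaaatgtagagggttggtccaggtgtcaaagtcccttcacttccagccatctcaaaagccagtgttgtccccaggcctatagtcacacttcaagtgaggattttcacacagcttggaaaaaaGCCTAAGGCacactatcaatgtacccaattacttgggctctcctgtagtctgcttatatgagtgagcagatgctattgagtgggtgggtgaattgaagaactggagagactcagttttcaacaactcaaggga
Each window held 1 AP-2 match, and the Dppa1 window also held 1 GATA match. The sources used here do not say how reads shared by both genes were divided, so their separate levels are uncertain.

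**Figure D3:**
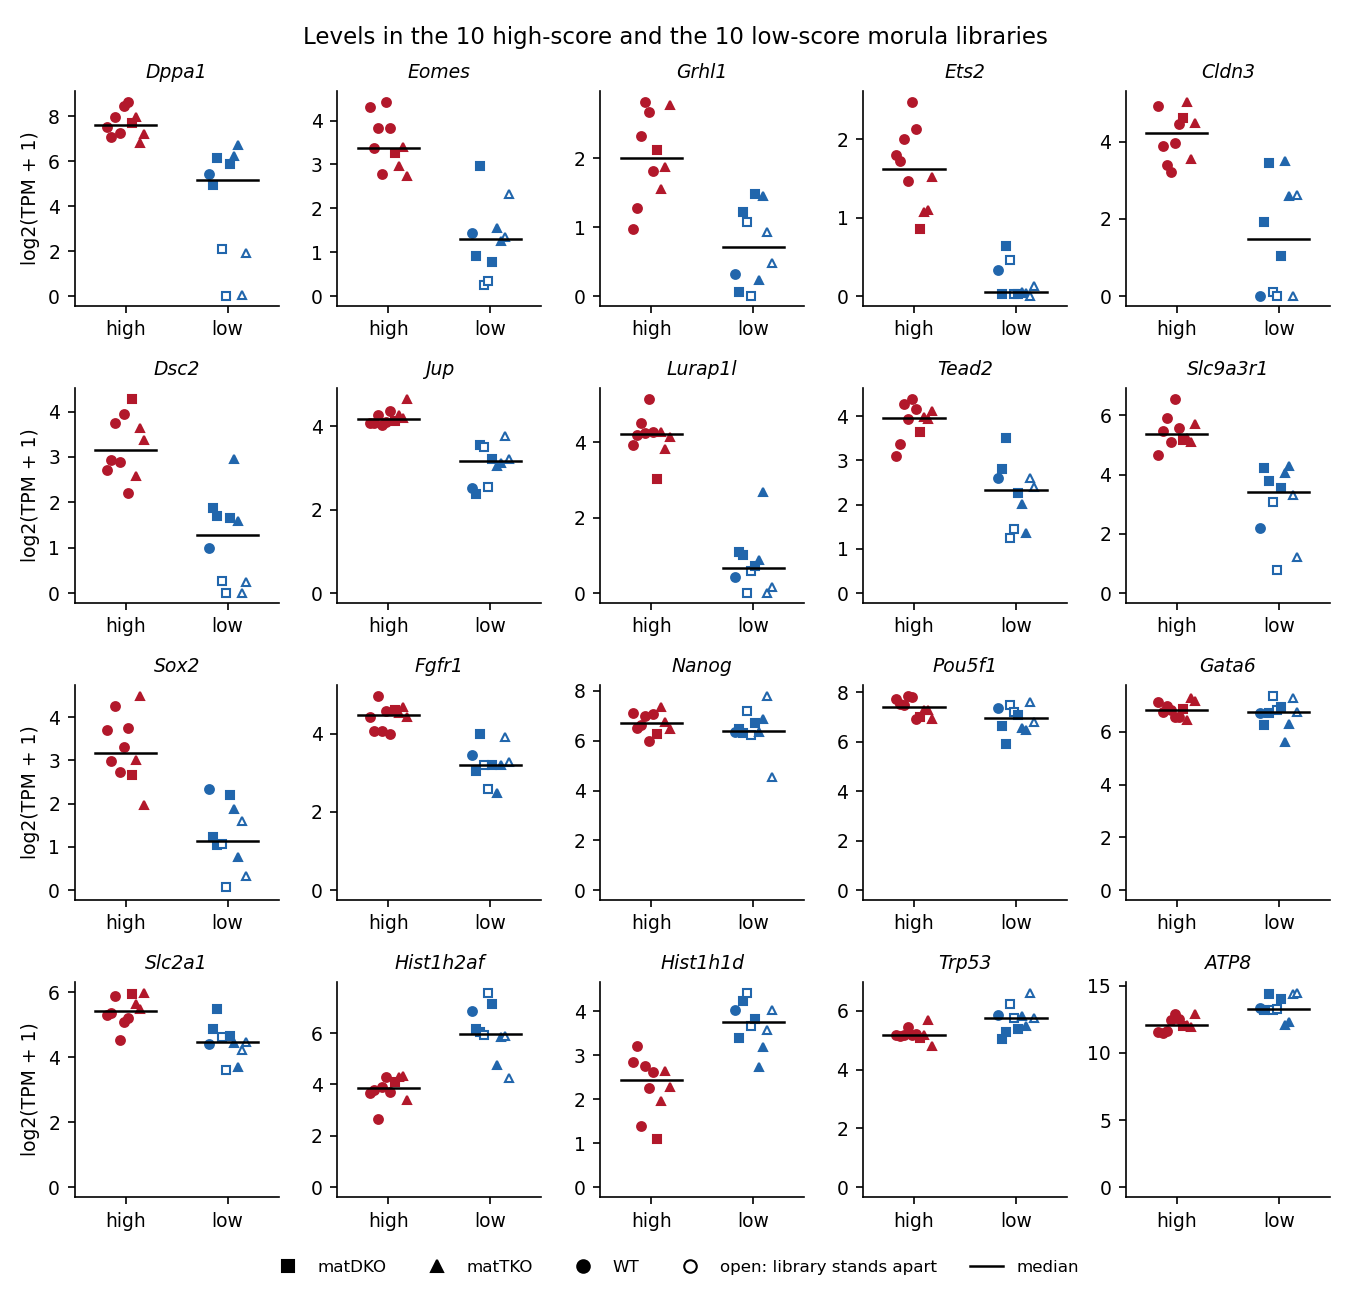
Level of 20 genes as log2(TPM + 1) in the 10 high-score (left) and 10 low-score (right) libraries, with symbols by genotype, open symbols for libraries that stand apart and a line at each median. Lurap1l, Jup and Fgfr1 separate the groups, Nanog, Pou5f1 and Gata6 do not, and the histone genes, Trp53 and ATP8 have lower medians in high-score libraries.

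Pumps and channels of the blastocoel had 5 of 13 tested members higher and 0 lower, with a median difference of 0.58. The share higher was 38.5%, against 13.6% of all genes. The score itself holds the pump subunit gene Atp1b1, so the direction of this list is no separate evidence either. Fxyd6, of a family that tunes the sodium pump, stood at 24.04 to 61.97 TPM (median 44.9) in high-score and at 0 to 31.2 TPM (median 10.98) in low-score morulae (2.07 ± 0.52, adjusted p = 0.0151). The water channel gene Aqp8 differed by 1.81 ± 0.54 (adjusted p = 0.0307), the chloride transporter Clcn3 by 0.75 ± 0.20 (adjusted p = 0.0192) and the pump subunit Atp1b3 by 0.58 ± 0.18 (adjusted p = 0.033). None of the 5 passed with median-ratio scaling, where adjusted p was 0.0671 for Fxyd6 and 0.378 for Atp1b3. The water channel genes Aqp3 and Aqp9 were not called (0.44 ± 0.26 and 0.36 ± 0.26). Without the 4 libraries that stand apart, Atp1b3 and Aqp8 were no longer called (adjusted p = 0.0617 and 0.133).

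Junction genes gave the highest share of any list of 10 or more tested members, 69.0% higher against 13.6% of all genes. Of 29 members 20 were higher and 0 lower, with a median difference of 0.95. The list covered tight junctions, adherens junctions, desmosomes and gap junctions. These are features of the same epithelium as the score, so the direction of this list is no separate evidence either. Cldn3, a claudin of tight junctions on chromosome 5, 134986214 to 134987476, stood at 8.34 to 31.7 TPM (median 17.9) in high-score and 0 to 10.3 TPM (median 1.93) in low-score morulae (2.91 ± 0.55, adjusted p = 0.00411), and the groups overlapped at their edges. Cldn6 differed by 2.16 ± 0.50, Cldn7 by 1.01 ± 0.28 and Cldn4 by 0.79 ± 0.21 (adjusted p = 0.00995, 0.0236 and 0.0184). The scaffold gene Tjp3 differed by 1.28 ± 0.38 (adjusted p = 0.0307), whereas Tjp1, which encodes ZO-1, and Ocln, which encodes occludin, had differences of 0.47 ± 0.19 and 0.84 ± 0.40 and were not called (adjusted p = 0.0983 and 0.155).

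In desmosomes, the cadherins Dsc2 and Dsg2 and the linker Dsp were all higher. Dsc2 stood at 3.63 to 18.3 TPM (median 7.97) in high-score and 0 to 6.73 TPM (median 1.495) in low-score morulae (2.31 ± 0.44, adjusted p = 0.00411). Dsg2 differed by 1.87 ± 0.49 and Dsp by 1.71 ± 0.43 (adjusted p = 0.0184 and 0.016). Jup, the plakoglobin shared by desmosomes and adherens junctions, stood at 15.2 to 24.1 TPM (median 17.02) in high-score and 4.17 to 12.7 TPM (median 8.02) in low-score morulae, without overlap (1.22 ± 0.20, adjusted p = 0.00235). The E-cadherin gene Cdh1 and its alpha-catenin partner Ctnna1 moved by less, 0.68 ± 0.19 and 0.64 ± 0.18 (adjusted p = 0.0223 and 0.0248), and beta-catenin (Ctnnb1) was not called (0.53 ± 0.21, adjusted p = 0.0937). With median-ratio scaling 4 of the 20 were called, namely Cldn3, Cldn6, Dsc2 and Jup. Without the 4 libraries that stand apart, Tjp3, Marveld3 and Pkp3 were no longer called (adjusted p = 0.0794, 0.0577 and 0.0701). Gjb5 and Cldn4 are among the genes in both this list and the trophectoderm list.

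Genes of polarity and the Hippo pathway had 7 of 31 tested members higher and 0 lower (22.6% higher, against 13.6% of all genes), with a median difference of 0.36. Slc9a3r1, which links membrane proteins to ezrin, stood at 24.1 to 92.5 TPM (median 40.1) in high-score and 0.720 to 18.7 TPM (median 9.76) in low-score morulae, without overlap (2.42 ± 0.50, adjusted p = 0.0057). Radixin (Rdx), of the same cortical family, differed by 1.13 ± 0.25 without overlap, the polarity gene Llgl2 by 0.93 ± 0.20, and the atypical kinase Prkcz by 0.74 ± 0.20 (adjusted p = 0.00814, 0.00626 and 0.0236). Rock1, the Hippo kinase gene Stk3 and Tead2 completed the 7. Stk3 was no longer called without the 4 libraries that stand apart (adjusted p = 0.0834). Tead2, a partner of YAP1 like Tead4, stood at 7.55 to 19.9 TPM (median 14.6) in high-score and 1.36 to 10.4 TPM (median 4.03) in low-score morulae (1.62 ± 0.32, adjusted p = 0.00504). Yap1, Wwtr1, Lats1, Lats2, Amot and Nf2 were not called, with differences of 0.30 ± 0.17, -0.23 ± 0.30, 0.06 ± 0.23, -0.20 ± 0.26, -0.12 ± 0.22 and 0.46 ± 0.25. With median-ratio scaling Slc9a3r1 and Tead2 were called higher and the scaffold gene Sav1 lower (-0.78, adjusted p = 0.0278).

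Of 28 tested genes of the inner cell mass list, 3 were higher and 0 lower (10.7% higher, near the 13.6% of all genes), with a median difference of 0.25. Sox2, the earliest factor of inner cells, was one of them, at 2.92 to 21.3 TPM (median 7.995) in high-score and 0.0600 to 4.03 TPM (median 1.22) in low-score morulae (1.67 ± 0.38, adjusted p = 0.00995), and it was also called with median-ratio scaling (1.44, adjusted p = 0.0384). The others were the uridine phosphorylase gene Upp1 (1.70 ± 0.46, adjusted p = 0.0207) and Zfp42, which encodes REX1 (0.61 ± 0.18, adjusted p = 0.0326). Nanog stood at 63.2 to 161 TPM (median 102) in high-score and 22.03 to 219 TPM (median 83.4) in low-score morulae (0.26 ± 0.35, adjusted p = 0.632). Pou5f1, which encodes OCT4, differed by 0.24 ± 0.23 and the ligand gene Fgf4 by 0.39 ± 0.48 (adjusted p = 0.483 and 0.603). Upp1 and Zfp42 were no longer called without the 4 libraries that stand apart (adjusted p = 0.056 and 0.0545). Dppa5a, one of the most abundant pluripotency transcripts, had medians of 6395 and 6066 TPM in high-score and low-score morulae (0.02 ± 0.15, adjusted p = 0.956).

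In the primitive endoderm list 3 of 18 tested members were higher and 0 lower (16.7% higher, near the 13.6% of all genes), with a median difference of 0.60. Fgfr1, the FGF receptor shared by inner cells, stood at 14.8 to 30.1 TPM (median 21.3) in high-score and 4.62 to 14.8 TPM (median 8.26) in low-score morulae, the lowest high-score value, 14.85 TPM, lying just above the highest low-score value, 14.84 TPM (1.24 ± 0.24, adjusted p = 0.00411). It was the member also called with median-ratio scaling. The laminin gene Lamc1 differed by 0.82 ± 0.24 (adjusted p = 0.0276), and Fgfr2 was given above. Gata6, the factor that opens this lineage, was not called (0.27 ± 0.22, adjusted p = 0.419). Sox17 and Pdgfra were not called (0.71 ± 0.39 and 0.53 ± 0.38), and Gata4 and Sox7 were below the filter. The endocytic receptor gene Amn and the matrix gene Sparc came nearest among the rest (1.43 ± 0.50 and 1.85 ± 0.72, adjusted p = 0.0588 and 0.0834).

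**Figure D4:**
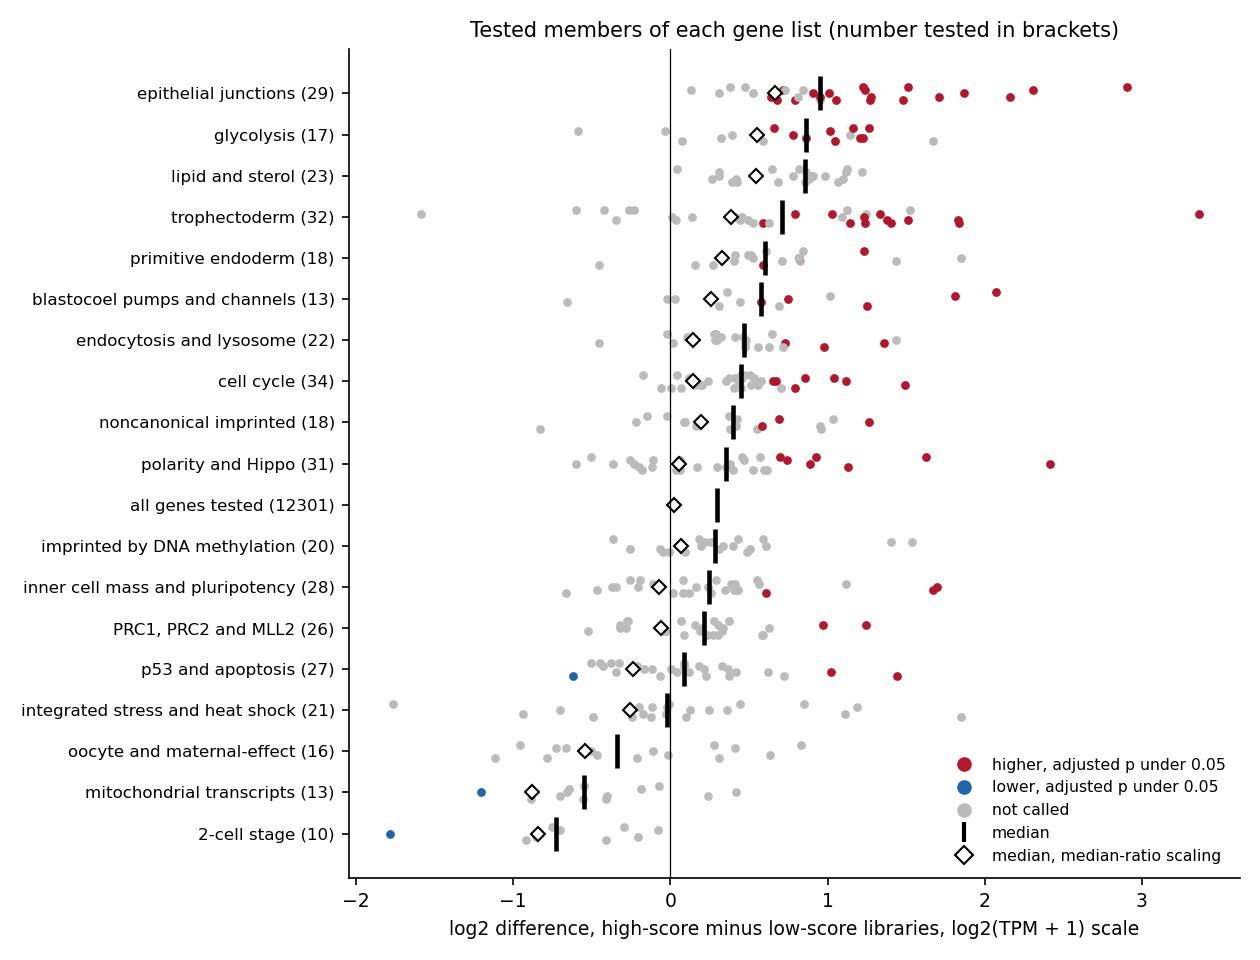
Difference of each tested list member, high-score minus low-score, on the log2(TPM + 1) scale, for lists with 10 or more tested members. Bars mark list medians in TPM and diamonds the medians with median-ratio scaling. Junction genes have the highest median at 0.95, against 0.30 over all genes tested, and 2-cell genes the lowest at -0.73.

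Cell cycle genes had 7 of 34 tested members higher and 0 lower (20.6% higher, against 13.6% of all genes), with a median difference of 0.45. The mitotic genes Ccnb2, Cdc25b and Aurkb differed by 1.12 ± 0.26, 1.49 ± 0.35 and 0.79 ± 0.20, and the proliferation marker Mki67 by 0.86 ± 0.23 (adjusted p = 0.00994, 0.0118, 0.0171 and 0.0187). Bub1b, Cdk2 and Ccnd3 were the others. The main mitotic cyclin Ccnb1 and the S-phase cyclin Ccna2 were not called (0.15 ± 0.16 and -0.06 ± 0.20). None of the 7 passed with median-ratio scaling. Without the 4 libraries that stand apart 16 of the 34 members were called higher, where 13.9% of all genes were.

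Glycolysis genes had 9 of 17 tested members higher and 0 lower (52.9% higher, against 13.6% of all genes), with a median difference of 0.87. Slc2a1, the main glucose transporter, stood at 22.2 to 61.6 TPM (median 41.7) in high-score and 11.3 to 44.2 TPM (median 21.1) in low-score morulae (1.26 ± 0.25, adjusted p = 0.00477), and it was the member also called with median-ratio scaling. Hexokinase 2 (Hk2), the liver-type phosphofructokinase gene Pfkl and the pyruvate kinase gene Pkm differed by 0.87 ± 0.23, 1.02 ± 0.30 and 1.22 ± 0.34 (adjusted p = 0.0181, 0.0293 and 0.0238). Aldoa, Gpi1, Eno1, Eno3 and Gapdh completed the 9, of which Eno3 was no longer called without the 4 libraries that stand apart (adjusted p = 0.0978). Genes such as Gapdh and Eno1 have processed copies in the genome, so their levels depend on how shared reads were divided. Ldha and Ldhb, the lactate dehydrogenase genes, were not called (0.39 ± 0.46 and -0.59 ± 0.38).

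Lipid and sterol genes gave no call. All 23 tested members had differences above 0, where 9175 of all 12301 genes did. Their median was 0.85, and 0 were called. Srebf1 and Scd1 came nearest with 0.78 ± 0.27 and 0.88 ± 0.33 (adjusted p = 0.0524 and 0.0728). Without the 4 libraries that stand apart the median was 0.29 and 2 were called. Over all genes the median was then 0.28, and 13.9% were called higher. Endocytosis and lysosome genes had 3 of 22 higher, the same 13.6% as all genes. They were the cathepsin gene Ctsd, the channel gene Mcoln1 and the vitamin B12 carrier gene Tcn2 (0.73 ± 0.17, 0.98 ± 0.29 and 1.36 ± 0.44, adjusted p = 0.00955, 0.0292 and 0.0423). None of the 3 passed with median-ratio scaling (adjusted p = 0.157, 0.186 and 0.173). Mcoln1 was no longer called without those 4 libraries (adjusted p = 0.0679), and the list's median was then 0.21 where it had been 0.47.

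Of all genes, Lurap1l had the smallest p. It lies on chromosome 4, 80910686 to 80954301, and stood at 7.17 to 34.2 TPM (median 17.6) in high-score and 0 to 5.39 TPM (median 0.580) in low-score morulae (3.15 ± 0.35, adjusted p = 0.000143). The groups did not overlap, and the middle libraries had a median of 11.9 TPM. It was also called with median-ratio scaling (2.93, adjusted p = 0.000868) and without the 4 libraries that stand apart (2.75, adjusted p = 0.000961). Further genes with large differences were the peptide transporter Slc15a2 (2.57 ± 0.56, adjusted p = 0.008), the galectin gene Lgals1 (2.69 ± 0.87, adjusted p = 0.0443), the glutathione transferase gene Mgst3 (2.71 ± 0.72, adjusted p = 0.0196), Cldn9 (2.65 ± 0.72, adjusted p = 0.022), the calcium-binding protein gene Cib2 (2.46 ± 0.66, adjusted p = 0.021) and the entry Mir3091 (2.49 ± 0.83, adjusted p = 0.0495). Slc15a2 was also called with median-ratio scaling (adjusted p = 0.0288), and the other 5 of these were not. Lgals1, Cldn9 and Mir3091 were also no longer called without the 4 libraries that stand apart (adjusted p = 0.0531, 0.0927 and 0.0713).

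Fewer genes were lower in high-score morulae, and several are histone or small RNA genes. Hist1h2af, a replication-dependent H2A gene, stood at 5.26 to 19.1 TPM (median 13.4) in high-score and 17.97 to 186 TPM (median 62.3) in low-score morulae (-2.01 ± 0.37, adjusted p = 0.00351). The linker histone gene Hist1h1d differed by -1.62 ± 0.31 (adjusted p = 0.00411). Rn7sk, the 7SK RNA that restrains transcription elongation, stood at 19.6 to 59.1 TPM (median 40.3) in high-score and 67.8 to 305 TPM (median 135) in low-score morulae, without overlap (-1.60 ± 0.31, adjusted p = 0.00413). Libraries were made from polyadenylated RNA, which these transcripts mostly lack, and both kinds have near-identical copies, so their levels are uncertain. The small nucleolar RNA entry Snora3 and the host transcript Snhg9 were also lower (-1.70 ± 0.56 and -1.52 ± 0.37, adjusted p = 0.0458 and 0.0125).

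The remaining lower genes named by size were Ppp2r2b, a regulatory subunit of protein phosphatase 2A (-1.56 ± 0.31, adjusted p = 0.00547), Trim43b and Trim43c (-1.59 ± 0.42 and -1.82 ± 0.55, adjusted p = 0.0203 and 0.0326), the nuclear body gene Sp110 (-1.78 ± 0.58, adjusted p = 0.0456), D7Ertd128e, Mir6240 and the Fc receptor gene Fcgr3 (-2.11 ± 0.60, -2.17 ± 0.65 and -1.87 ± 0.63, adjusted p = 0.026, 0.0307 and 0.0497). Trim43b and Trim43c are close copies whose reads can be divided between them. All 12 lower genes except Fcgr3 were also called lower with median-ratio scaling. Without the 4 libraries that stand apart, Mir6240, D7Ertd128e, Fcgr3, Trim43c, Sp110 and Snora3 were no longer called, with adjusted p from 0.0804 for Sp110 to 0.155 for Fcgr3.

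Transcripts of earlier stages were counted next. In the 2-cell list 1 of 10 tested members was lower, namely Sp110, where 0.683% of all genes were. All 10 had differences below 0 (median -0.73, and -0.40 without the 4 libraries that stand apart). Of all 12301 genes, 9175 had differences above 0. The next members by p were Obox6, Tdpoz1 and Zfp352, with differences of -0.92 ± 0.46, -0.86 ± 0.44 and -0.85 ± 0.62 (adjusted p = 0.174, 0.185 and 0.345). The summed level of the list was 510.7 to 734.6 TPM (median 650.1) in high-score and 583.8 to 1633 TPM (median 821) in low-score morulae. In the oocyte and maternal-effect list 0 of 16 were called and 11 had differences below 0 (median -0.34, and -0.18 without those 4). Padi6, of the oocyte's cytoplasmic lattices, differed by -0.51 ± 0.27 and the oocyte transcription factor gene Figla by -0.67 ± 0.38 (adjusted p = 0.204 and 0.233). The egg coat gene Zp3 had medians of 3.42 and 11.3 TPM in high-score and low-score morulae and did not pass (-1.12 ± 0.62, adjusted p = 0.215). The oocyte markers Gdf9, Bmp15, Oosp1 and Zp2 were below the filter.

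In the p53 and apoptosis list 2 of 27 tested members were higher and 1 lower (7.41% and 3.70%, against 13.6% and 0.683% of all genes). The initiator caspase gene Casp9 was among those higher (1.02 ± 0.27, adjusted p = 0.0192). Trp53 itself stood at 26.97 to 50.4 TPM (median 35.2) in high-score and 32.2 to 95.7 TPM (median 53.2) in low-score morulae (-0.62 ± 0.20, adjusted p = 0.0415), and was no longer called without the 4 libraries that stand apart (adjusted p = 0.0741). With median-ratio scaling Trp53 was called and Casp9 was not (adjusted p = 0.0142 and 0.101). In the stress and heat shock list 0 of 21 were called, the nearest being the unfolded protein response factor Xbp1 (1.85 ± 0.64, adjusted p = 0.0544), which was called without those 4 (adjusted p = 0.0487). The chaperone gene Hspa5 and the heme oxygenase gene Hmox1 had differences of 0.85 ± 0.31 and 1.19 ± 0.46 (adjusted p = 0.067 and 0.0837). The serine synthesis gene Psat1 had -0.70 ± 0.29 (adjusted p = 0.0974), and with median-ratio scaling it was called lower (-1.02, adjusted p = 0.0468). The median of this list was -0.02, and 0.39 without those 4. Of 13 mitochondrial transcripts, ATP8 was lower (-1.21 ± 0.36, adjusted p = 0.0314) and the rest were not called, with COX1 (0.42 ± 0.30) and ND6 (0.24 ± 0.26) the ones above 0. ATP8 was no longer called without those 4 (adjusted p = 0.119).

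The maternally deleted genes were not called. Pcgf1, Pcgf6 and Kmt2b, which the embryo can transcribe from its own alleles, differed by 0.08 ± 0.26, -0.03 ± 0.22 and 0.33 ± 0.28 with genotype in the fit (adjusted p = 0.846, 0.945 and 0.428). In the list of PRC1, PRC2 and MLL2 genes 2 of 26 were higher (7.69%, against 13.6% of all genes), Kmt2a and Yaf2 (1.25 ± 0.33 and 0.97 ± 0.27, adjusted p = 0.0193 and 0.0239), and neither passed with median-ratio scaling (adjusted p = 0.0779 and 0.121). The PRC2 cofactor gene Mtf2 came just short (0.58 ± 0.20, adjusted p = 0.0508), and the core PRC2 gene Suz12 was called lower with median-ratio scaling (-0.64, adjusted p = 0.0409) and not in TPM (-0.32 ± 0.18, adjusted p = 0.231). Genes imprinted through maternal H3K27me3 had 3 of 18 higher (16.7%, near the 13.6% of all genes), Sfmbt2, Rbms1 and Epas1 (1.26 ± 0.42, 0.69 ± 0.19 and 0.59 ± 0.17, adjusted p = 0.0472, 0.0224 and 0.0291). None of these 3 was called without the 4 libraries that stand apart (adjusted p = 0.136, 0.0602 and 0.0507) or with median-ratio scaling (adjusted p = 0.184, 0.21 and 0.3). The next member, the splicing factor gene Mbnl2, had a difference of 0.96 ± 0.34 (adjusted p = 0.0587). Genes imprinted through DNA methylation had 0 of 20 called, the nearest being Mest (1.54 ± 0.56, adjusted p = 0.0669) and the noncoding RNA gene Meg3 (1.41 ± 0.66, adjusted p = 0.147).

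No marker of granulosa and cumulus cells or of blood and stroma was called. Of the granulosa and cumulus list 2 of 16 genes passed the filter, Gja1 and Star, and 0 were called. The list summed to 182 to 444 TPM (median 329) in high-score and 202 to 352 TPM (median 299) in low-score morulae, most of it Gja1, a connexin gene that embryos also express. Fshr, Inhba, Ptx3 and Ptgs2 were listed at 0 in all 30 libraries, and Cyp19a1 and Amh did not exceed 0.03 and 0.13 TPM. Tnfaip6 and Vim, also below the filter, reached 13.64 and 4 TPM in their highest library. Of the blood and stroma list 3 of 13 passed, Pecam1, Hba-a1 and Cd68, and 0 were called. Below the filter, Ptprc reached no more than 0.01 TPM and the globin gene Hbb-bs up to 2.78 TPM. That list summed to 14.3 to 105.5 TPM (median 30.1) in high-score and 6.46 to 85.8 TPM (median 35.8) in low-score morulae. The summed level of 4 Y-linked genes was at least 10 TPM in 7 high-score and 6 low-score libraries.

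The relation to the score was also examined inside each genotype. No library is shared between genotypes, but in each of them replicates 1 to 5 scored above replicates 6 to 10 on average (7.08 against 5.87 in matDKO, 6.96 against 6.24 in matTKO and 7.43 against 7.01 in WT libraries). The slopes were fitted without that split, which as a covariate left 0 calls in the comparison above, so slopes alike in several genotypes and the split cannot be told apart. Each genotype also had 1 library far below the rest in score. These were matDKO replicate 9 (4.523, next 5.878), matTKO replicate 8 (4.809, next 6.045) and WT replicate 9 (6.31, next 7.094). The deviations of replicate 9 in matDKO and WT had a correlation of 0.58, the highest of the same-numbered pairs. How far the slopes rest on these libraries was not tested. Among WT libraries alone 525 genes had a positive and 88 a negative slope on the score (4.27% and 0.715% of 12301 genes, n = 10, limma adjusted p under 0.05). Of the 525, 520 had a positive slope in matDKO and 486 in matTKO libraries, that is 99.0% and 92.6%, where 67.8% and 65.2% of all genes did. Of the 88, 79 had a negative slope in matDKO and 57 in matTKO libraries, that is 89.8% and 64.8%, where 31.9% and 34.6% of all genes did. In matDKO libraries 2189 genes had a positive slope (17.8%) and 401 a negative one (3.26%), and in matTKO libraries 685 (5.57%) and 92 (0.748%). The genotypes differed in the spread of the score (SD 0.835 in matDKO, 0.746 in matTKO and 0.369 in WT), so their counts are not compared. Lurap1l had slopes, in log2 units per unit of score, of 1.46 ± 0.39 in matDKO, 2.02 ± 0.30 in matTKO and 3.29 ± 0.33 in WT libraries, and each was called. Cldn3 had slopes of 2.25 ± 0.46 in matDKO, 1.87 ± 0.32 in matTKO and 2.86 ± 0.72 in WT libraries and Dsc2 of 1.40 ± 0.31 in matDKO, 1.36 ± 0.34 in matTKO and 1.89 ± 0.47 in WT libraries, and each of these was called. Sox2 had slopes of 1.51 ± 0.28 in matDKO, 0.96 ± 0.44 in matTKO and 1.01 ± 0.48 in WT libraries and was called in matDKO. Nanog had slopes of 0.13 ± 0.14 in matDKO, -0.04 ± 0.35 in matTKO and 0.33 ± 0.40 in WT libraries and was called in none. An F test of the score by genotype interaction over all 30 libraries called 19 genes (0.154%), with 1063 at an unadjusted p under 0.05.

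**Figure D5:**
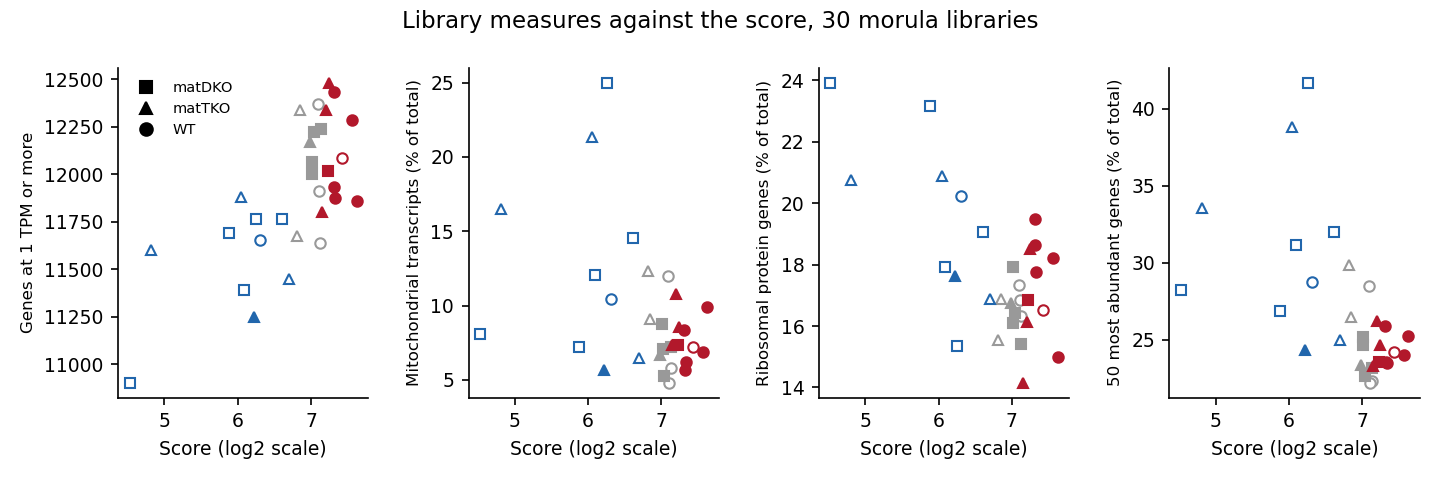
Genes at 1 TPM or more, and the shares of the total in mitochondrial transcripts, ribosomal protein genes and the 50 most abundant genes, against the score in 30 morula libraries, coloured from the 10 highest (red) to the 10 lowest (blue), with filled symbols for replicates 1 to 5. The matDKO library with the lowest score, 4.52, also has the fewest genes, 10902.

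Finally, 5 library measures were related to the score over the 30 libraries by permutation, with adjustment over the 5. The number of genes at 1 TPM or more rose with it (r = 0.70, adjusted p = 0.0001; rho = 0.62, adjusted p = 0.00155), and r was 0.60 without matTKO replicate 8 and matDKO replicate 9, the 2 libraries farthest from the median score. Within replicates 1 to 5 r was 0.555 and within 6 to 10 it was 0.68. Within genotypes r was 0.95 in matDKO, 0.53 in matTKO and 0.42 in WT libraries (n = 10 each). The ribosomal protein share fell with it (r = -0.69, adjusted p = 0.000575; rho = -0.38, adjusted p = 0.0536; r = -0.49 without those 2), as did the share of the 50 most abundant genes (r = -0.56, adjusted p = 0.00632; rho = -0.60, adjusted p = 0.00157; r = -0.63 without those 2). The mitochondrial share had r = -0.41 (adjusted p = 0.034; rho = -0.37, adjusted p = 0.0536; r = -0.49 without those 2). Within replicates 1 to 5 these 3 relations did not hold (r = 0.000248, 0.13 and 0.39 for the ribosomal protein, top 50 and mitochondrial shares), and within 6 to 10 r was -0.78, -0.41 and -0.29. The Y-linked sum had r = 0.16 (adjusted p = 0.417; rho = 0.29, adjusted p = 0.114; r = 0.08 without those 2). With the number of genes at 1 TPM or more as a covariate, limma called 241 genes higher and 31 lower. The part of these measures in the gene differences was otherwise not tested.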

How the data were processed

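RNA was measured in 30 mouse morula libraries, 10 each of matDKO, matTKO and WT, assigned by sample title. cDNA came from the SMART-Seq v4 kit and libraries from Nextera XT (labels' protocols), neither of which marks strand. Tools named in the submitters' processing notes, with no role given, are featureCounts 1.6.0, RSEM 1.3.1, STAR (2.7.3, 2.7.6) and Trim Galore 0.6.4, and builds are GRCm38 and mm10. The authors deposited the table as RPKM, but each library sums to 999421 to 999922, so its values were treated as TPM and the planned log2 test was kept. No read number is given, so depth is unknown and no counting interval is printed. Whether replicates are separate embryos or litters is not stated, so p-values measure the spread between these samples only.

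The members, the gene lists and the rule for named genes were chosen with earlier results of these data known. Values were analysed as log2(TPM + 1) with limma 3.58.1 in R 4.3.3 (trend = TRUE, two-sided, Benjamini-Hochberg) for genes with a mean of at least 1 TPM, with genotype as covariate. A difference on this scale understates that of low genes. Permutation tests used 100000 resamples in scipy 1.17.1, exact for n under 10. Named were the 12 largest differences in each direction among called genes with a mean of 10 TPM or more in either group, up to 4 members with the smallest p in each of 22 lists, and 19 genes always given. Other list members are named for their known roles and were picked with values seen. Some genes that met the rule are not reported here. On simulated data limma recovered 63% of genes changed by 1 and 97% of those changed by 2 on the log2 scale, with 9 false calls among 12301. Changes were planted only in genes with a mean level of about 10 TPM or more, with noise drawn separately for each gene. A shift common to many genes or a split of replicate numbers was not simulated, so these figures do not cover such effects. Alternatives were pseudocount, filter, scaling, covariates, group size, score genes and libraries left out. The table's symbols matched RefSeq names for 32375 of 35842 genes.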

Additional observations from a re-analysis of the deposited data

Results flagged for a closer look

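In 6 of 153 groups of 10 libraries examined, 1 value lay far from the rest, and chance alone marks about 1 group in 20. The score of matDKO replicate 9 was 4.523, with the next matDKO library at 5.878. The score of matTKO replicate 8 was 4.809, with the next at 6.045. The score of WT replicate 9, the one WT library in the low group, was 6.31, with the next WT library at 7.094. On the log2(TPM + 1) scale, Krt8 was at 4.768 (26.25 TPM) in matDKO replicate 9 and Nanog at 4.525 (22.03 TPM) in matTKO replicate 9, each below the other low-score libraries. Lurap1l was at 2.676 (5.39 TPM) in matTKO replicate 7, above the other low-score libraries, where the next highest was 1.084.

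The slope on the score differed between genotypes for 19 genes by limma's F test. Of these, 7 were above 0 in all 30 libraries, and several others were entries seen in 1 library. The 7 were the histocompatibility gene H2-D1 (adjusted p = 0.02081), the pluripotency-linked gene L1td1 (0.01615), the complement gene C2 (0.02605), the adaptor gene Grb7 (0.02605), the corepressor gene Ctbp2 (0.03773), Gprc5a (0.03773) and Abhd17b (0.04622). Among genes with a mean of 5 TPM or more the same test called 1 gene, so most of these 7 calls depended on the filter. L1td1 had slopes of 0.69 ± 0.13 in matDKO, -0.42 ± 0.15 in matTKO and 0.52 ± 0.24 in WT libraries (SE). H2-D1 had slopes of 1.49 ± 0.16 in matDKO, 0.27 ± 0.17 in matTKO and 1.02 ± 0.19 in WT libraries. Ctbp2 had slopes of 0.87 ± 0.12 in matDKO, 0.03 ± 0.20 in matTKO and 1.597 ± 0.14 in WT libraries.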

How the results depend on the processing

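The number of calls moved with the processing. Genes called higher and lower numbered 864 and 34 with no filter, 3150 and 290 without the genotype term, 241 and 31 with the number of genes detected as covariate, 247 and 235 with median-ratio scaling, 204 higher with quantile normalization, and 835 and 49 for the 8 highest against the 8 lowest. With the score as a continuous variable they numbered 4033 and 980 over 30 libraries. Over the 26 libraries that do not stand apart, such a fit gave 3181 and 192. When the 10 highest and 10 lowest libraries were chosen by the score centred by genotype, they numbered 2954 and 307. Those groups shared 5 high-score and 8 low-score libraries with the main ones. Leaving Atp1b1 out of the score gave 854 higher, and leaving out Tfap2c gave 127 lower. Leaving out 1 library at a time gave 449 to 1945 higher and 17 to 136 lower. Higher calls moved by over 1.5 times without matDKO replicate 3 (449), the only matDKO library in the high group, WT replicate 9 (860) and matTKO replicate 3 (971). Lower calls did so without matDKO replicate 3 (17), WT replicate 9 (44), matTKO replicate 3 (48), matTKO replicate 2 (50), matTKO replicate 5 (131) and matDKO replicate 7 (136).

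Replicate numbers were not taken to pair the libraries, since 13 of 30 same-numbered pairs had deviations correlated over 0.1, not all of them. As a hint from the data, 9 of 30 correlated best with their own number, and numbers 3 and 9 were over 0.1 in each of their 3 pairs. With the replicate block 0 genes were called higher and 0 lower, with 707 at an unadjusted p under 0.05 and a median SE of 0.50 against 0.26, and ATP8, Kmt2a and Sfmbt2 turned to 0.34, -0.13 and -0.58. The same block gave an adjusted p of 0.00293 for both genotype differences of the score. With replicates 1 to 5 against 6 to 10 as covariate 0 were higher and 0 lower. Mir3091 turned to -0.079 for the 15 highest against the 15 lowest.

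The score difference from WT no longer passed without Cdx2 in the score (-0.72 for matDKO, adjusted p = 0.0535; -0.55 for matTKO, adjusted p = 0.0635, by permutation), without the 4 libraries that stand apart (-0.43 and -0.33), or, for matTKO, among replicates 6 to 10 (-0.77, adjusted p = 0.155 by exact permutation). The interaction called 1 gene with a mean of 5 TPM or more, 57 with the replicate block and 56 without the 4 libraries. The alternatives that leave out the 4 libraries or use the split of replicate numbers were chosen after seeing the data. For each of these the cause was not tested. Depth is unknown, so the precision of low levels cannot be stated.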

Other observations

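Among the genes with the smallest p after Lurap1l, 5 with known roles are given here, picked after their values were seen. Lmna, which encodes lamins A and C, stood at 80.5 to 140.5 TPM (median 109) in high-score and 28.9 to 66.4 TPM (median 52.3) in low-score morulae, without overlap (1.23 ± 0.17, limma adjusted p = 0.00189). The COPII coat gene Sec23b differed by 1.18 ± 0.19 and the translocon gene Sec61a1 by 0.96 ± 0.15 (adjusted p = 0.00221 and 0.00221). Tfeb, the factor that turns on lysosome genes, stood at 33.4 to 52.05 TPM (median 37.3) in high-score and 6.36 to 25.9 TPM (median 13.7) in low-score morulae, without overlap (1.55 ± 0.24, adjusted p = 0.00221). Pdzk1, a scaffold of the apical membrane, differed by 2.34 ± 0.37 (adjusted p = 0.00221). These 5 were also called with median-ratio scaling.

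Gene families were counted by name after the values were seen. Of 56 replication-dependent histone genes tested, 1 was higher and 7 lower, and with median-ratio scaling 0 were higher and 7 lower (12.5% lower both ways). Over all genes 13.6% were higher and 0.683% lower, and with median-ratio scaling 2.01% and 1.91%. Of 77 small nucleolar and Cajal body RNAs, 0 were higher and 3 lower (3.90% lower). Of 7 claudins 5 were higher and 0 lower (71.4% higher), and of 5 tested keratins outside the score 1 was higher, Krt7. Of 13 RNA polymerase II subunit genes 0 were higher and 2 lower (15.4% lower).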
